A study of Mus musculus with 6 samples.

Results

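Carriers that move amino acids across membranes, with relatives that move neurotransmitters, taurine and creatine, were followed in mouse uterine epithelium. The genes were all those measured whose symbol starts with Slc1a, Slc3a, Slc6a, Slc7a, Slc36a, Slc38a or Slc43a and a number, which gave 63 of the 18193 genes on the array. Of these, 60 encode members of the carrier families. The other 3, Slc7a6os, Slc6a19os and Slc36a1os, lie on the strand opposite a carrier gene, share its name and are not carriers. There were 6 Affymetrix expression arrays in 3 groups of 2. The first group was epithelium of mice in which 1 of the copies of Sox17 carries GFP (Sox17GFP/+, here Sox17 heterozygous) on day 4 of pregnancy, arrays 253 and 281. The second was wild-type (WT) epithelium on day 4, arrays 277 and 284, and the third WT epithelium on day 1, when the plug was seen, arrays 302 and 303. Neither strain nor age is stated in the labels. The numbers look like those of animals, but nothing says that samples came from separate mice, so the p-values measure the spread between these samples, and 2 arrays a group limit the precision of every value.

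Amino acids enter epithelial cells through carriers driven by the sodium gradient, by protons or by exchange of one amino acid for another. The SLC7 light chains need a heavy chain of the SLC3 family to reach the membrane, while most of the other families work without such a partner. Inside the cell, amino acids feed the mTORC1 pathway, which promotes growth, and their shortage turns on the kinase GCN2 and the transcription factor ATF4. In the uterus, the epithelium also passes amino acids into the fluid in which the embryo lies before it implants. In mice, estrogen governs the uterus just after mating, and progesterone takes over before implantation. Uterine epithelial cells make the transcription factor SOX17.

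Values are probe set signals on a linear scale. Changes are differences of log2(signal + 1), with limma's standard error (SE) after ±, and a gene was called when its adjusted p was under 0.05 in limma with Benjamini-Hochberg adjustment over all 18193 genes. Signals of different probe sets do not compare as amounts of RNA. Sox17 itself read 30189 and 28810.3 in heterozygotes, 34794 and 35060.4 in WT on day 4 and 7738 and 8671 in WT on day 1. It was lower on both heterozygous arrays than on both WT day 4 arrays but did not pass (-0.24 ± 0.19, adjusted p = 0.586), and the labels do not say whether its probe set lies within the sequence that GFP replaces. Epithelial markers were bright on every array, with none of the 9 below 728. Krt8, a keratin of simple epithelium, read between 25455 and 29696, while Muc1 and Krt7 of the same list fell between days, as given below. The gland factor Foxa2 was dim, between 31.1 and 220.1, and the 6 glandular markers measured had mean signals from 66.2 to 752. WT day 4 array 277 stood apart in its dim range: 27.0% of its probe sets read below 50, against 41.6% to 44.6% on the other 5 arrays. Of the 63 genes, 22 had a mean signal of at least 200 over the 6 arrays and 41 were dimmer. Among the 41 dimmer genes, array 277 read higher than array 284 in 36, with a median log2 difference of 1.44, and among the 22 brighter genes in 12, with a median of 0.23. Values of the dimmer genes in WT on day 4 therefore depend on which of these arrays is read, and results are given below with and without array 277. The other pairs leaned to 1 side among the 22 brighter genes too. Day 1 array 302 read higher than array 303 in 4, with a median log2 difference of -0.26. Heterozygous array 253 read higher than array 281 in 15, with a median of 0.11.

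**Figure D1:**
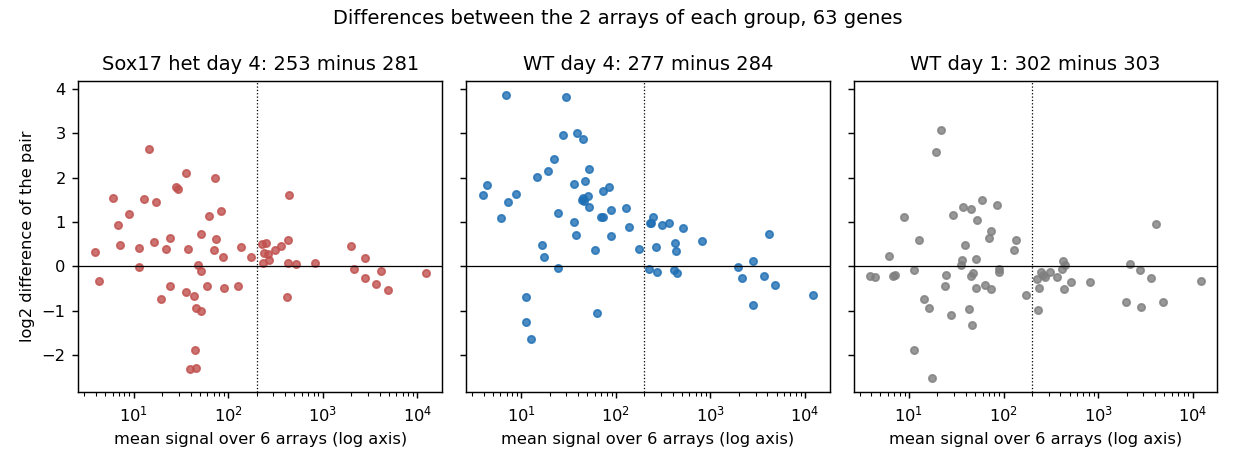
Log2 difference between the 2 arrays of each group (vertical axis) against the mean signal over 6 arrays (horizontal log axis) for the 63 genes, with a dotted line at a mean signal of 200. In WT on day 4, 36 of the 41 genes left of the line lie above 0, while in the other groups the dim genes scatter to both sides.

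**Figure D2:**
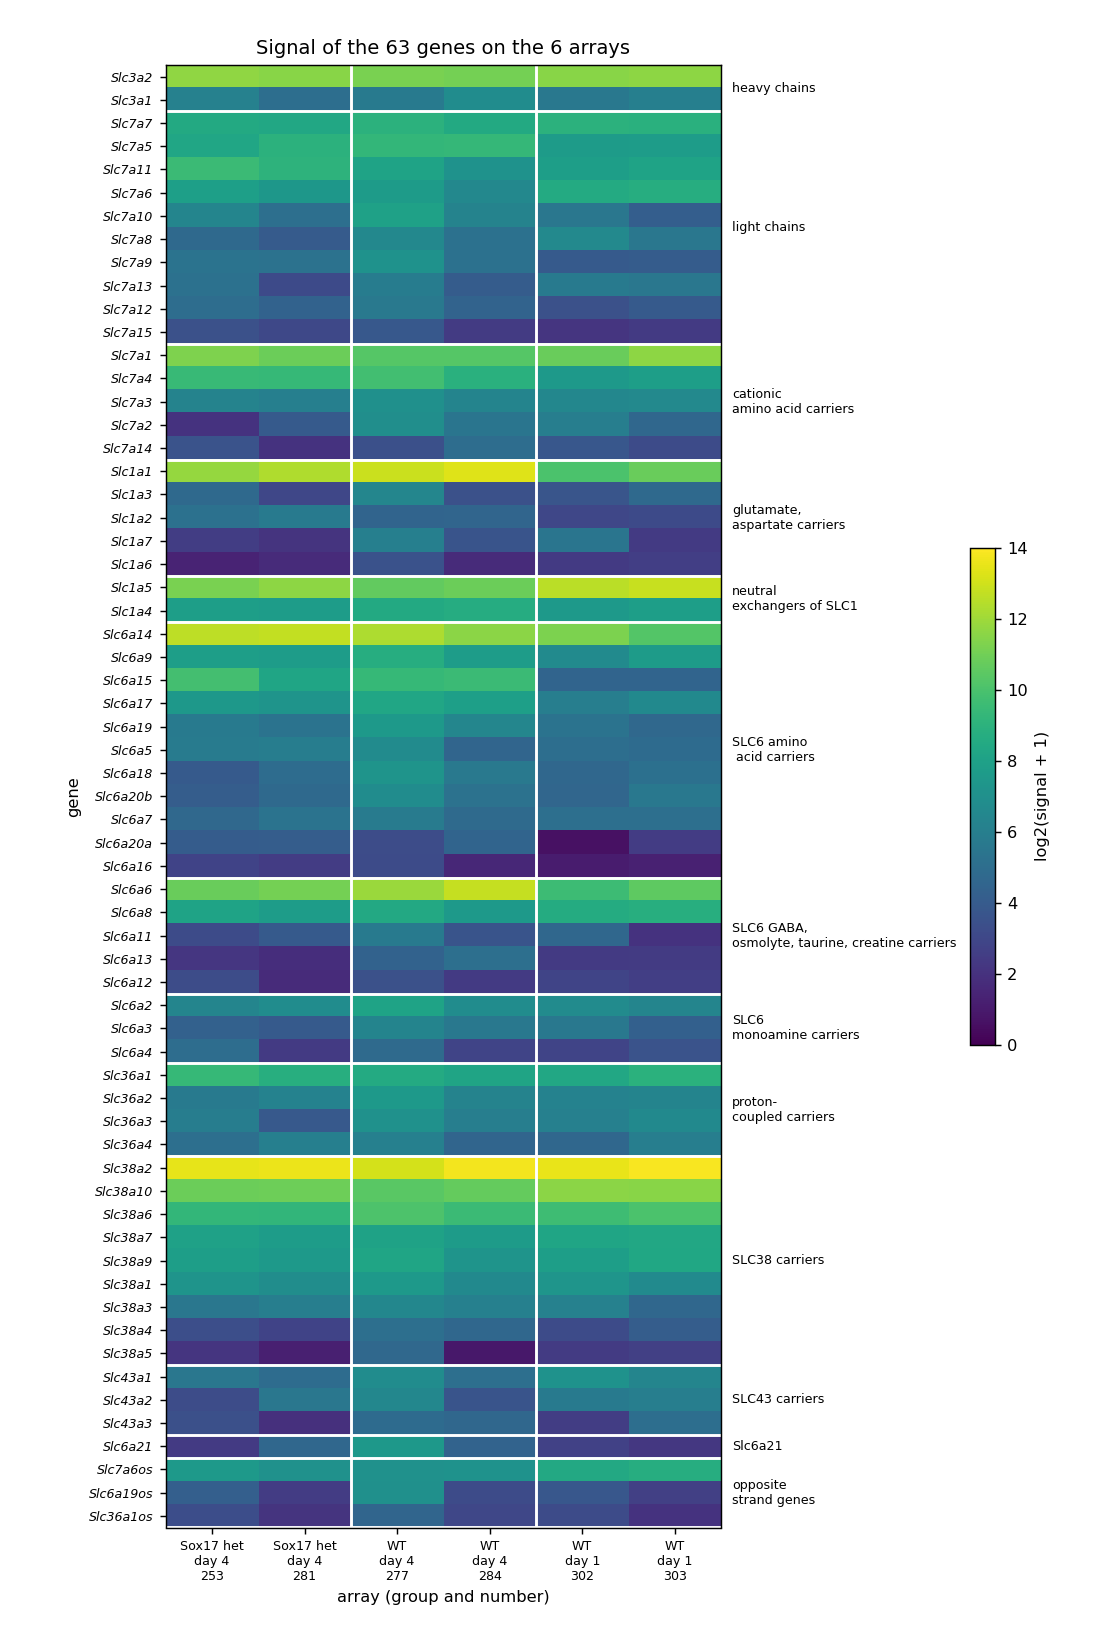
Signals of the 63 genes, as log2(signal + 1) in colour, on the 6 arrays (columns), with the genes (rows) ordered by transport class. Slc38a2 is bright on every array, Slc6a15 is dark on both WT day 1 arrays only, and many dim genes are lighter on WT day 4 array 277 than on array 284.

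The first comparison asked how the carriers change in WT epithelium between day 4 and day 1. On day 4, 6 of the 63 genes had risen (9.52%; 7.58% of all genes rose) and 3 had fallen (4.76%; 5.73% of all genes fell). The genes that rose were the glutamate carriers Slc1a1 and Slc1a2, the neutral amino acid carriers Slc6a15 and Slc6a17, the GABA and taurine carrier Slc6a13, and Slc7a5, the light chain that imports large neutral amino acids. Those that fell were the glutamine exchanger Slc1a5, Slc38a10 and the opposite strand gene Slc7a6os. The shares lie near those of all genes in both directions. Both day 4 arrays lay above both day 1 arrays for 22 genes (34.9%; 35.4% of all genes) and below them for 8 (12.7%; 21.3% of all genes). The median log2 change of the 63 genes was 0.74, against 0.30 for all genes. It was 0.05 without array 277, against 0.05 for all genes. Among the 22 brighter genes it was -0.29, against 0.10 for all genes of that brightness.

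The carriers that take up glutamate and aspartate with sodium hold 5 genes, of which 2 rose. Slc1a1 read 3514 and 5070.5 in heterozygotes, 7583 and 10095 in WT on day 4 and 1029 and 1795 in WT on day 1. Slc1a1 encodes EAAT3, which brings in glutamate, aspartate and cysteine. Its day 4 signals in WT were 6.43 times those of day 1 on the log2(signal + 1) scale, with no overlap of arrays (log2 change 2.69 ± 0.40, adjusted p = 0.0238). Both other Slc1a1 probe sets rose too when every probe set was fitted (adjusted p = 0.0179 and 0.0316). Slc1a2 read 36.9 and 51.0 in heterozygotes, 21.7 and 22.5 in WT on day 4 and 6.79 and 7.93 in WT on day 1. Slc1a2, a glutamate carrier best known in glia, passed as well (1.47 ± 0.25, adjusted p = 0.0313), but all its signals were dim, and with an intensity trend in the variance its adjusted p was 0.333. Its 4 other probe sets changed by -0.34 to 1.45. Slc1a3, Slc1a6 and Slc1a7 read at most 85.9 and did not pass.

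Of the 2 neutral exchangers of the same family, 1 fell. Slc1a5 read 2343 and 3099 in heterozygotes, 1604 and 1869 in WT on day 4 and 5918 and 7115 in WT on day 1. Slc1a5 encodes ASCT2, which exchanges glutamine and other neutral amino acids, and it fell (-1.91 ± 0.25, adjusted p = 0.0193), with both day 4 arrays well below both day 1 arrays. Its other probe set also fell (-1.57 ± 0.26, adjusted p = 0.0368). Slc1a4 read 233 and 212 in heterozygotes, 367 and 404 in WT on day 4 and 192 and 228 in WT on day 1. Slc1a4 encodes ASCT1, an exchanger of serine and alanine, and missed the threshold (0.88 ± 0.21, adjusted p = 0.0672), although its arrays did not overlap. In limma over every probe set, its other probe sets were at 1.64 ± 0.37 and 1.72 ± 0.45. They passed with an intensity trend (adjusted p = 0.00525 and 0.023) but not by default (adjusted p = 0.068 and 0.0952).

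Neither of the 2 heavy chains was called. Slc3a2 read 3318 and 2904 in heterozygotes, 2341 and 2168 in WT on day 4 and 2934 and 3128 in WT on day 1. Slc3a2 encodes the heavy chain 4F2hc (CD98) and did not pass (-0.43 ± 0.20, adjusted p = 0.239). Slc3a1, the heavy chain rBAT of cystine uptake, read between 31.7 and 110.4 on all arrays, with overlapping groups. Of the 10 light chains, 1 rose and none fell. Slc7a5 read 309.8 and 501 in heterozygotes, 610.4 and 650.2 in WT on day 4 and 204 and 212 in WT on day 1. Slc7a5 encodes LAT1, the partner of 4F2hc for leucine and other large neutral amino acids, and rose (1.59 ± 0.30, adjusted p = 0.0394). The y+L light chains, which exchange cationic for neutral amino acids, did not rise with it. Slc7a6 read 242 and 167 in heterozygotes, 201 and 92.1 in WT on day 4 and 379 and 416 in WT on day 1. Slc7a6 was at -1.54 ± 0.46 (adjusted p = 0.107), but its other probe set fell, its signals being 102 and 81.1 in WT on day 4 against 482 and 430.0 on day 1 (-2.31 ± 0.34, adjusted p = 0.0287 over every probe set). Slc7a6os read 187 and 133 in heterozygotes, 134 and 141 in WT on day 4 and 343 and 416 in WT on day 1. That opposite strand gene, which encodes a protein of its own, fell (-1.45 ± 0.26, adjusted p = 0.0374). Slc7a7 read between 339.8 and 513 on all arrays and did not pass. The light chains Slc7a8, Slc7a9, Slc7a10, Slc7a12, Slc7a13 and Slc7a15 had mean signals under 200 and did not pass.

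Among the 5 cationic amino acid carriers of SLC7, none passed. Slc7a1 read 2532 and 1841 in heterozygotes, 1247 and 1260.3 in WT on day 4 and 1801 and 3168 in WT on day 1. Slc7a1 encodes CAT1, which imports arginine and lysine (-0.93 ± 0.36, adjusted p = 0.182). Slc7a4 read 686 and 668 in heterozygotes, 857 and 468 in WT on day 4 and 182 and 233 in WT on day 1. Slc7a4, a relative of the cationic carriers, was at 1.62 ± 0.36 (adjusted p = 0.0606), with day 4 above day 1 on every array. Its other probe set, the brighter of 2, rose when every probe set was fitted, its signals being 388 and 357 in WT on day 4 and 52.8 and 101 in WT on day 1 (2.34 ± 0.39, adjusted p = 0.0371). Slc7a2, Slc7a3 and Slc7a14 read at most 127.1 and did not pass.

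Of 11 SLC6 carriers of amino acids, 2 rose and none fell. All 11 changes were above 0 (median 1.19), although that of the proline carrier Slc6a7, at 0.23, lies below the median of all genes. Of the 41 dimmer of the 63 genes, 36 had a change above 0. On array 284 alone, Slc6a7 read 27.7, against 33.7 and 33.3 on day 1, and Slc6a5 read 23.0, against 32.7 and 28.9. Slc6a15 read 918 and 299.7 in heterozygotes, 658 and 736 in WT on day 4 and 22.0 and 21.5 in WT on day 1. Slc6a15 encodes B0AT2, a sodium-driven carrier of branched-chain amino acids and proline. It had the largest change of the 63 genes (4.94 ± 0.57, adjusted p = 0.0153), and its day 1 signals were dim. Slc6a17 read 175 and 151 in heterozygotes, 316 and 239.7 in WT on day 4 and 61.7 and 97.4 in WT on day 1. Slc6a17, a relative of Slc6a15 known from synaptic vesicles, rose (1.81 ± 0.32, adjusted p = 0.0354). Slc6a14 read 6271 and 6750.3 in heterozygotes, 5009.9 and 3028 in WT on day 4 and 2381 and 1229 in WT on day 1. Slc6a14 encodes ATB0,+, which takes up neutral and cationic amino acids with sodium and chloride. It did not pass in WT (1.19 ± 0.44, adjusted p = 0.168), although day 4 was above day 1 on every array. Slc6a9 read 228 and 215 in heterozygotes, 425 and 216 in WT on day 4 and 102 and 203 in WT on day 1. Slc6a9 encodes the glycine carrier GlyT1 and did not pass (1.07 ± 0.50, adjusted p = 0.245), while its other probe set rose (1.63 ± 0.21, adjusted p = 0.0232 over every probe set). The other 7, among them Slc6a19 and Slc6a18, carriers of kidney and gut, read at most 183.0 on any array and did not pass.

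The SLC6 carriers of GABA, osmolytes, taurine and creatine held 5 measured genes. Slc6a6 read 1783 and 2139 in heterozygotes, 3747 and 6922 in WT on day 4 and 775 and 1468 in WT on day 1. Slc6a6 encodes the taurine carrier, and no array of day 4 overlapped day 1, but it missed the threshold (2.25 ± 0.47, adjusted p = 0.0516). Over the alternative settings its adjusted p ranged from 0.000353 to 0.198, with 0.0340 under quantile normalization. Its other bright probe set rose (1.89 ± 0.33, adjusted p = 0.041 over every probe set). Slc6a13 read 3.68 and 2.52 in heterozygotes, 20.2 and 33.0 in WT on day 4 and 4.16 and 4.49 in WT on day 1. Slc6a13 rose by the test (2.33 ± 0.32, adjusted p = 0.021), at signals of at most 33.0, and did not pass with an intensity trend (adjusted p = 0.134). Slc6a8 read 274 and 214 in heterozygotes, 347 and 182 in WT on day 4 and 398 and 437 in WT on day 1. The creatine carrier Slc6a8 did not pass at this probe set (-0.73 ± 0.38) and fell at its other one (-1.92 ± 0.34, adjusted p = 0.0428). The monoamine carriers Slc6a2, Slc6a3 and Slc6a4, which take up noradrenaline, dopamine and serotonin, did not pass.

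Among 9 measured SLC38 genes, 1 fell. Slc38a2 read 11321 and 12495 in heterozygotes, 8816 and 13797 in WT on day 4 and 11885 and 14947 in WT on day 1. Slc38a2 encodes SNAT2, a sodium-driven carrier of small neutral amino acids, and its groups overlapped. Slc38a10 read 1855 and 1946 in heterozygotes, 1393 and 1679 in WT on day 4 and 3078 and 2958 in WT on day 1. Slc38a10 fell (-0.98 ± 0.20, adjusted p = 0.0499), but its 6 other probe sets changed by -0.80 to 1.87, and the mean over its probe sets was at 0.14 (adjusted p = 0.829). The lysosomal genes Slc38a7 and Slc38a9, Slc38a9 being one that senses arginine for mTORC1, read between 152.4 and 339 with no call. None of the 4 proton-coupled SLC36 carriers or of the 3 SLC43 genes passed.

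The number of calls between days depended on the array left out and on the scaling. With an intensity trend, 7 of the 63 genes rose (14.0% of all genes) and 5 fell (10.8%), which included 4 of the 6 risers and all 3 fallers of the default fit and added Slc6a6, Slc6a14, Slc7a4, Slc7a1 and Slc7a6. Without day 1 array 302 or 303 the default fit called 0 genes of the whole array, with 15 of the 63 genes at an unadjusted p under 0.05 in each case (23.8%; 20.6% and 21.7% of all genes). Without either heterozygous array 1 gene had risen, Slc6a15, and 0 had fallen. The 4 WT arrays alone gave the same counts, where 337 of all 18193 genes had risen and 279 had fallen. Without array 277 or 284, calls among the 63 and among all genes changed as well. The median change of all genes was then 0.05 without array 277 and 0.53 without array 284. Over all genes the median change was 0.30, and 0.15 after quantile normalization. Centring each array on its median, which sets it to 0.00, left 1 riser, Slc6a15 (4.64, adjusted p = 0.00576), and 0 fallers, and each of the 9 called changes kept its sign. Markers of other cells also differed between the days. Over all genes, 21.3% were lower and 35.4% higher in WT on day 4 than on day 1 without overlap. The 10 stroma markers summed to 2369 and 3222 on day 4 and to 13108 and 18897 on day 1 (5 of 10 lower, 2 higher without overlap), and 6 smooth muscle markers to 392 and 309 on day 4 and to 893 and 891 on day 1 (4 of 6 lower). The 7 macrophage markers summed to 16744 and 17158 on day 4 and to 22553 and 21093 on day 1, although 4 of 7 were higher and 1 lower. Cd14 made up most of each macrophage sum (13966 and 15491 on day 4 and 15709 and 14736 on day 1). Markers of the epithelium itself differed too. The 6 luminal markers summed to 80842 and 64870 on day 4 and to 8688 and 7119 on day 1, with 4 higher and 1 lower. Most of the day 4 sum was Calb1 (65174 and 51482), and Met, in the same list, fell (-3.54 ± 0.32, adjusted p = 0.00964). The 6 glandular markers summed to 1425 and 888 on day 4 and to 3026 and 1944 on day 1, but 2 were higher and 2 lower, with Aldh1a1 called higher (1.89 ± 0.26) and Wnt7b lower (-2.83 ± 0.35). Of 9 general epithelial markers, 5 were lower and 1 higher without overlap, with Muc1 (-4.10 ± 0.27) and Krt7 (-2.33 ± 0.20) called lower and Cldn3 (1.39 ± 0.21) higher. The 4 markers of oviduct and cilia summed to 5725 and 7485 on day 4 and to 262 and 360 on day 1, with 3 higher and 1 lower. Endothelial, neutrophil, lymphocyte and erythrocyte markers summed to at most 588 on any array. No marker was at 0, and the part of these cells in the carriers' changes was not tested. In bulk tissue, fewer cells of a type and less RNA per cell cannot be told apart.

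**Figure D3:**
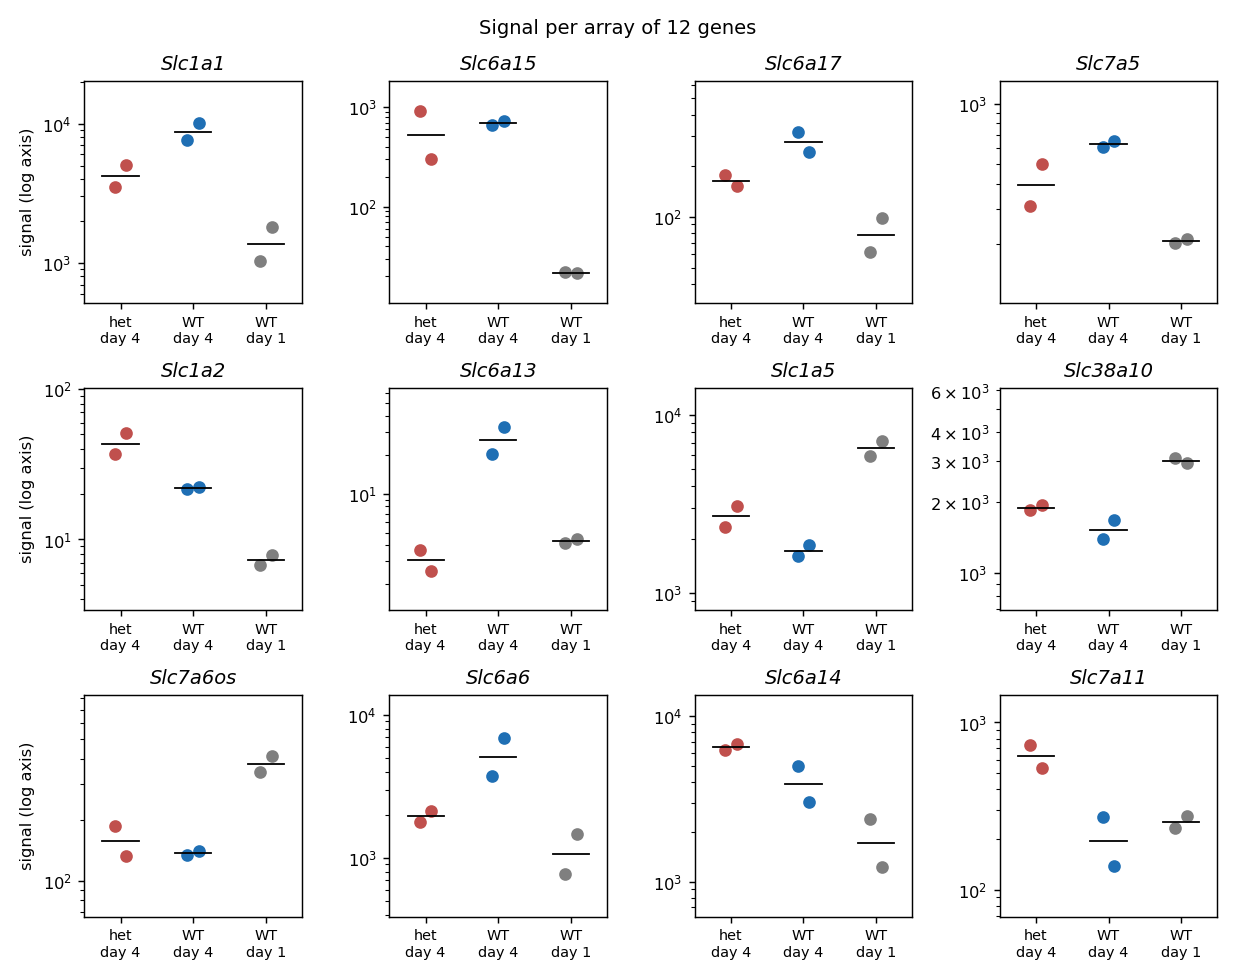
Signals of 12 genes on each array (points, log axis) in Sox17 heterozygotes on day 4 (left), WT on day 4 (middle) and WT on day 1 (right), with a line at the mean of log2(signal + 1). For Slc1a1, Slc6a15, Slc6a17 and Slc7a5 both WT day 4 arrays lie above both day 1 arrays, for Slc1a5, Slc38a10 and Slc7a6os below them, and Slc7a11 is highest on the heterozygous arrays.

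Comparing the genotypes on day 4 asks how the carriers differ with 1 normal copy of Sox17. No gene of the 63 passed in limma (0 of all 18193 genes, 0%), while 10 of the 63 had an unadjusted p under 0.05 (15.9%; 13.2% of all genes). The 0 over all genes depended on the dim genes in the fit. At a mean signal of at least 200, a filter chosen after seeing the data, 451 of 9106 genes were called. There, 10 of the 22 brighter genes had an unadjusted p under 0.05 in limma (45.5%; 24% of all genes in that fit). With an intensity trend 1 gene was higher, Slc7a11, and 1 was lower, Slc6a6 (1.59% of the 63 each; 1.93% and 1.59% of all genes). On 8 genes both heterozygous arrays lay above both WT arrays (12.7%; 18.0% of all genes) and on 20 below (31.7%; 30.6% of all genes). The median log2 difference was -0.67, against -0.20 for all genes. Centring each array turned the median of all genes to 0.25. The median of the 63 was -0.03 without array 277, against -0.02 for all genes. Over the 22 brighter genes it was 0.05, against 0.004 for all genes of that brightness. Of the 20 lower genes, 15 were among the 41 dimmer ones.

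Slc7a11, the light chain xCT, exchanges glutamate for cystine together with the heavy chain Slc3a2 and so supplies cysteine for glutathione. Slc7a11 read 733 and 536 in heterozygotes, 274 and 138 in WT on day 4 and 233 and 278 in WT on day 1. The heterozygous arrays lay above all 4 WT arrays, and the difference from WT on day 4 was 1.68 ± 0.42 (adjusted p = 0.259, and 0.0304 with an intensity trend in limma). After centring it was 2.13 (adjusted p = 0.0293 with the trend), and without array 277 it was 2.17. Its other probe set had the same order at a smaller size, with 176 and 203 in heterozygotes, 119 and 99.0 in WT on day 4 and 155 and 139 on day 1 (0.79 ± 0.24), and did not pass by default or with the trend (adjusted p = 0.356 and 0.375). Slc3a2, its heavy chain, was above WT on day 4 on both heterozygous arrays but did not pass (0.46 ± 0.20, adjusted p = 0.414). Against WT on day 1 the arrays of Slc3a2 overlapped (0.035 ± 0.20).

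The sequence before the start of Slc7a11 is shown because it holds 2 matches to TGATGNAA, the element that ATF4 and C/EBP factors bind in genes of the amino acid response, and because the light chain Slc7a7, which was not called (-0.29 ± 0.26), holds 1 in the window that RefSeq lists first. Both are 250 bases up to the start, 5′ to 3′ on the gene's strand (minus), from RefSeq on GRCm38.p6, at chr3:50443614-50443863 for Slc7a11 and chr14:54417945-54418194 for Slc7a7. Capitals mark the matches.
Slc7a11: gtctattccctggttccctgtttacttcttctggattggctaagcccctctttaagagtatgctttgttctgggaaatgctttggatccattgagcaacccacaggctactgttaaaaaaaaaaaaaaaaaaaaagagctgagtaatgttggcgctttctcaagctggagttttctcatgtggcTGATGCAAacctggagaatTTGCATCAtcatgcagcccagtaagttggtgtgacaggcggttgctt
Slc7a7: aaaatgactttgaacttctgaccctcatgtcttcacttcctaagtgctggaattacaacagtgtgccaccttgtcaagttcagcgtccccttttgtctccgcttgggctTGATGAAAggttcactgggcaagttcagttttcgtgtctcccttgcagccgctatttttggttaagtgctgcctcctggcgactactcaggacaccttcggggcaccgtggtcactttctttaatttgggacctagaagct
In Slc7a11 the matches begin at positions -66 and -47 from the start and lie on opposite strands. In Slc7a7 the match begins at -141, and a further start of this gene has 1 at -243. Over both strands, TGATGNAA occurs in 3.45% of 32851 promoter windows of this length, and 2 or more occur in 13 of them (0.0396%), of which Slc7a11 is the only one among the 46 of the 63 genes with a window. The other motifs searched, on both strands, were ACAAT (the core that SOX proteins bind, in 27.7% of windows), TGACNNNGC (the core of the antioxidant element, 10.2%) and the palindromic progesterone receptor element (0.387%), and none of these is in either window shown. Of the 46 genes, 3 held TGATGNAA in a window (Slc7a11, Slc7a7 and Slc6a21), 14 ACAAT, 9 TGACNNNGC and 0 the progesterone receptor element. A gene can have several windows, so these counts are not in the same unit as the shares of windows. A match in letters is a description and not a site.

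Several carriers that rose in WT by day 4, by default or with an intensity trend, read lower in heterozygotes than in WT on day 4, without passing the default test. The comparisons share the WT day 4 arrays, so the differences of a gene in genotype and in day are not independent. For Slc6a6 and Slc1a1 both are given side by side. Slc6a6, the taurine carrier, read 1783 and 2139 in heterozygotes and 3747 and 6922 in WT on day 4 (-1.38 ± 0.47, adjusted p = 0.352, and 0.0422 with an intensity trend), beside 2.25 ± 0.47 between days. The genotype difference did not pass with the trend after centring each array (-0.93, adjusted p = 0.579). Its other bright probe set had 2068 and 2475 in heterozygotes and 2928 and 3878 in WT, a smaller difference (-0.57 ± 0.33). Slc1a1 read 3514 and 5070.5 in heterozygotes and 7583 and 10095 in WT, without overlap (-1.05 ± 0.40, adjusted p = 0.379), beside 2.69 ± 0.40 between days. Both of its other probe sets passed as lower in the fit over every probe set with an intensity trend (-1.33 ± 0.34 and -1.28 ± 0.38, adjusted p = 0.0123 and 0.0281).

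Slc1a4, the serine and alanine exchanger, was lower on both heterozygous arrays (233 and 212, against 367 and 404 in WT), short of the threshold (-0.79 ± 0.21, adjusted p = 0.277). Its other probe sets showed a larger difference, with 137 and 163 in heterozygotes and 591 and 596 in WT at the first (-1.98 ± 0.37, adjusted p = 0.0144 with an intensity trend over every probe set) and 86.3 and 87.7 in heterozygotes and 364 and 336 in WT at the second (-2.00 ± 0.45, adjusted p = 0.0555). Slc7a5 read 309.8 and 501 in heterozygotes and 610.4 and 650.2 in WT (-0.68 ± 0.30, adjusted p = 0.419). For Slc6a17 the heterozygous signals were 175 and 151 and those of WT 316 and 239.7 (-0.75 ± 0.32, adjusted p = 0.414). Slc38a6, a member of the glutamine carrier family, had 615 and 587 in heterozygotes and 1102 and 748 in WT (-0.60 ± 0.29, adjusted p = 0.444). Slc6a15, the largest riser between days, overlapped between genotypes, with 918 and 299.7 in heterozygotes on either side of WT (-0.41 ± 0.57, adjusted p = 0.759).

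On the higher side, beside Slc7a11 and Slc3a2, were Slc1a5, Slc6a14, Slc7a1, Slc36a1, Slc38a10 (0.31 ± 0.20) and the dim Slc1a2 (0.94 ± 0.25), none of which passed. The other probe sets of Slc38a10 were all below 0, at -2.84 to -0.03, and those of Slc1a2 were at -1.09 to 0.81. Slc1a5, the glutamine exchanger, read 2343 and 3099 in heterozygotes and 1604 and 1869 in WT on day 4 (0.64 ± 0.25, adjusted p = 0.394). Slc6a14 read 6271 and 6750.3 in heterozygotes and 5009.9 and 3028 in WT (0.74 ± 0.44, adjusted p = 0.503). The arginine and lysine carrier Slc7a1 had 2532 and 1841 in heterozygotes and 1247 and 1260.3 in WT (0.78 ± 0.36, adjusted p = 0.428). Slc36a1, a proton-driven carrier of glycine, alanine and proline found at lysosomes and the cell surface, had 663 and 442 in heterozygotes and 371 and 291 in WT (0.72 ± 0.34, adjusted p = 0.435). In these 4 genes the heterozygous arrays lay above both WT arrays, and the SE of the difference was between 0.25 and 0.44. Slc38a2, Slc38a7, Slc38a9, Slc7a4, Slc6a8 and Slc7a7 overlapped between genotypes.

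Markers of other cells differed between the genotypes as well. Over all genes, 30.6% were lower and 18.0% higher in heterozygotes than in WT on day 4 without overlap. The stroma markers summed to 1135 and 1682 in heterozygotes and to 2369 and 3222 in WT on day 4, and 7 of 10 were lower without overlap. The smooth muscle markers summed to 190 and 172 in heterozygotes and to 392 and 309 in WT, with 3 of 6 lower. The macrophage markers summed to 13676 and 14338 in heterozygotes and to 16744 and 17158 in WT, with 5 of 7 lower. Most of each macrophage sum was Cd14 (12139 and 12925 in heterozygotes and 13966 and 15491 in WT). The luminal markers summed to 49309 and 48709 in heterozygotes and to 80842 and 64870 in WT, with 4 of 6 lower and 1 higher. Calb1 made up most of each luminal sum (39895 and 39316 in heterozygotes and 65174 and 51482 in WT). The glandular markers summed to 2144 and 1834 in heterozygotes and to 1425 and 888 in WT, with 3 of 6 higher and 1 lower. Those of oviduct and cilia summed to 21018 and 11080 in heterozygotes and to 5725 and 7485 in WT, with 2 of 4 higher and 2 lower. Of 9 general epithelial markers, 4 were higher and 3 lower without overlap. Among the lists of low signal, 2 of 5 endothelial, 3 of 4 neutrophil, 4 of 5 lymphocyte and 2 of 2 erythrocyte markers were lower. No marker was at 0. Their part in the differences was not tested.

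**Figure D4:**
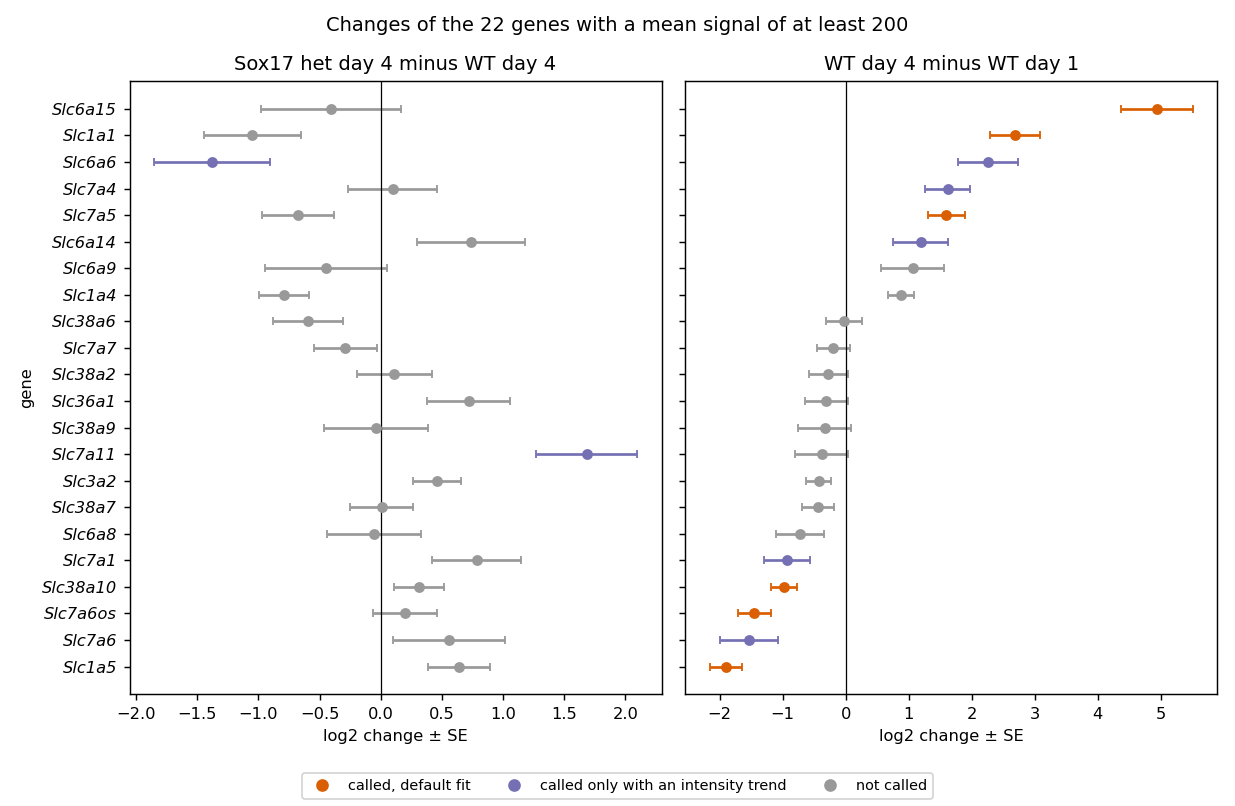
Log2 change with its SE (horizontal axis) of the 22 genes with a mean signal of at least 200, in Sox17 heterozygotes minus WT on day 4 (left) and in WT on day 4 minus day 1 (right). Orange points were called in the default fit, purple points with an intensity trend alone and grey points in neither, and Slc6a15 lies furthest to the right between days, at 4.94.

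Heterozygous epithelium on day 4 was also set against WT on day 1, where both genotype and day differ. Of the 63 genes, 2 were higher (3.17%; 5.07% of all genes) and 0 lower (4.48% of all genes), with 12 at an unadjusted p under 0.05 (19.0%; 25.9% of all genes). The arrays did not overlap for 16 higher genes (25.4%; 32.2% of all genes) and 18 lower ones (28.6%; 30.1% of all genes). Slc6a15 read 918 and 299.7 in heterozygotes and 22.0 and 21.5 in WT on day 1 (4.53 ± 0.57, adjusted p = 0.0227), and the dim Slc1a2 read 36.9 and 51.0 in heterozygotes and 6.79 and 7.93 in WT (2.41 ± 0.25, adjusted p = 0.0163). With an intensity trend 6 were higher (11.7% of all genes) and 3 lower (9.65%). The higher genes were Slc1a1, Slc6a14, Slc6a15, Slc7a4, Slc7a5 and Slc7a11, and the lower Slc1a5, Slc38a10 and Slc7a6os. In the default fit, leaving out any array of these groups ended every call among all genes. The loss of both calls is therefore not particular to these genes. Over all alternative settings the change was 3.39 to 5.34 for Slc6a15 and 0.45 to 2.64 for Slc1a2.

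The pathways around the carriers were read from 4 lists of genes. Of 35 measured genes of amino acid sensing by mTORC1, 4 rose (11.4%) and 2 fell (5.71%) in WT on day 4, where 7.58% of all genes rose and 5.73% fell. The list's median log2 change was 0.27, against 0.30 for all genes. Depdc5, a subunit of the GATOR1 complex that restrains mTORC1, rose to 1011 and 1066 on day 4, against 68.8 and 84.6 on day 1 (3.75 ± 0.22, adjusted p = 0.00646). Depdc5 has 6 probe sets, and for the genes of these lists only the one of highest mean was read. The translation repressor Eif4ebp1, a target of mTORC1, fell to 177 and 133 on day 4, against 2357 and 1899 on day 1 (-3.77 ± 0.25), as did Ddit4 (-2.43 ± 0.21), whose product inhibits mTORC1. The sestrins Sesn1 (2.11 ± 0.28) and Sesn2 (2.14 ± 0.31), of which SESN2 senses leucine, and the GATOR2 subunit Wdr59 (1.50 ± 0.30) rose. In heterozygotes against WT on day 4 none of the 35 passed. Depdc5 passed as lower (296 and 338 in heterozygotes, -1.71 ± 0.22) and Ddit4 as higher (1958 and 1664 in heterozygotes and 798 and 670.0 in WT, 1.30 ± 0.21) with an intensity trend alone (adjusted p = 0.00978 and 0.00243). The third gene by p was Fnip2, a partner of folliculin, at 0.49 ± 0.18.

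Of 22 genes of the response to amino acid shortage, 6 rose (27.3%) and 2 fell (9.09%) in WT on day 4, against 7.58% and 5.73% of all genes, with a median of 0.37, against 0.30 for all genes. The risers were Cth (4.22 ± 0.40), which makes cysteine, Eif2ak4 (3.04 ± 0.41), the kinase GCN2 itself, Mthfd2 (2.81 ± 0.23) of mitochondrial folate metabolism, Vldlr (2.75 ± 0.36), a lipoprotein receptor, Psat1 (2.24 ± 0.29) of serine synthesis, and Sesn2. Shmt2, which makes glycine from serine in mitochondria, fell (-2.00 ± 0.21), and so did the stress factor Nupr1 (-5.33 ± 0.52). The list's name-giving factor Atf4 did not pass (-0.47 ± 0.23, adjusted p = 0.257), nor did its target Asns (0.38 ± 0.22). Against WT on day 4, none of the 22 passed in heterozygotes (median -0.02, against -0.20 for all genes). With an intensity trend Mthfd2 was called higher (0.74 ± 0.23) and Cebpg, a C/EBP factor that pairs with ATF4, lower (-0.80 ± 0.19), while Atf4 read 4184 and 3397 in heterozygotes and 4419 and 3668 in WT. Trib3, an ATF4 target, was at -2.34 ± 0.68 (adjusted p = 0.298), at signals of at most 90.2 in both groups.

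Among 10 measured partners and regulators of carriers at the membrane, 2 rose (20%) and 1 fell (10%) in WT on day 4, against 7.58% and 5.73% of all genes, and the median was -0.09. Atp1b1, a subunit of the sodium pump that maintains the gradient these carriers use, rose to 37726 and 40030.2 on day 4, against 9871 and 12019 on day 1 (1.83 ± 0.21, adjusted p = 0.0143). Basigin (Bsg), which brings monocarboxylate carriers to the membrane, fell (-1.54 ± 0.18). Sgk1, a kinase that raises the surface level of several sodium-coupled carriers, rose (1.22 ± 0.24, adjusted p = 0.0449). In heterozygotes Sgk1 read 37541 and 30504, against 10783 and 8337 in WT on day 4, a difference that passed with an intensity trend (1.84 ± 0.24, adjusted p = 0.000732) but not by default (adjusted p = 0.161). Cltrn, which brings Slc6a19 to the membrane of kidney cells, was at -2.33 ± 0.38 at signals of at most 24.0, and Bsg at 0.46 ± 0.18.

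Of 22 other carriers of amino acids and peptides, 2 rose and 2 fell in WT on day 4 (9.09% each), against 7.58% and 5.73% of all genes, and the median was 0.16. The peptide carriers Slc15a2 (7572 and 7357 on day 4, against 1384 and 1741 on day 1, 2.26 ± 0.21) and Slc15a1 (2.55 ± 0.51) rose. The mitochondrial aspartate and glutamate carrier Slc25a13 (-2.38 ± 0.26) and Slc66a1 (-1.28 ± 0.26), which exports cationic amino acids from lysosomes, fell. In heterozygotes none passed against WT on day 4. The carnitine carrier Slc22a5 was called higher with an intensity trend (2164 and 2467 in heterozygotes and 1272 and 1405 in WT, 0.79 ± 0.20, adjusted p = 0.0204), and the mitochondrial carriers Slc25a15 of ornithine and Slc25a12 of aspartate were at 0.80 ± 0.20 and 1.00 ± 0.26 without passing.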

How the data were processed

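Per the labels' protocols, epithelium was freed from the uterus with pancreatin and dispase, and 100 ng of RNA was amplified and labelled with biotin. The authors deposited 1 intensity for each probe set and array, on a linear scale, and the submitters' processing notes name RMA, Transcriptome Analysis Console and Affymetrix Expression Console without versions. How the signals were summarised stays unknown, since RMA gives log values and these have a mean of 500 on each array after trimming 2% at either end. No detection calls were used.

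Titles gave the groups. Of 45101 probe sets, 34945 had 1 gene symbol in the platform's annotation, and each of the 18193 genes took its probe set of highest mean log2(signal + 1), with no further normalization or filter. The 3 groups were fitted over 6 arrays with limma 3.58.1 in R 4.3.3 (default eBayes, 3 residual degrees of freedom), and the fits were tested on simulated data. An exact permutation test of 2 arrays against 2 cannot go below p = 0.333 and was not run. Named were called members, those called with an intensity trend, up to 6 per direction with the largest genotype difference without overlap and a mean of 200 or more in either group, heavy and light chains, the 5 genes of highest mean and, per pathway list, the 3 of smallest p. Further genes and the members' other probe sets were added after their values were seen. The members and lists were chosen with earlier results of these data known. Promoter windows come from RefSeq (GRCm38.p6), for 46 of 63 genes. Alternatives were other normalizations, pseudocounts, filters, variance priors, probe set rules and thresholds, and leaving out each array. The mean signal of 200, the trend without array 277 and the 60 carriers alone were chosen after seeing the data.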

Additional observations from a re-analysis of the deposited data

How the results depend on the processing

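Among single genes, 442 values kept their direction and their side of the threshold under the alternatives, 94 lost the call, 34 gained one and 1 reversed. The reversal was Slc38a10 between WT days with the mean of its probe sets (0.14). A value counted as kept also where the gene was called in neither fit, so the 442 do not measure how firmly the calls hold. All 94 losses are among changes called in the default fit. The cause of the changes given here was not tested. Between WT days, the 6 higher genes became 1 after centring each array, 1 with 4 arrays only and 10 at an adjusted p under 0.10, and 0 to 7 on leaving out each array. The 3 lower genes became 0 after centring, 0 with 4 arrays only, 5 with an intensity trend, 6 with the trend and without array 277, 5 at a mean signal of at least 200, and 0 to 1 on leaving out each array. Between heterozygotes and WT on day 4, where 0 passed either way, 1 gene was higher with the trend, 1 with the trend after centring and 1 with the trend and without array 277, and 1 was lower with the trend and 1 with the trend and without array 277. Between heterozygotes and WT on day 1, the 2 higher genes became 5 with quantile normalization, 5 with a pseudocount of 32, 4 at a mean signal of at least 50, 6 with the trend, 4 with the trend after centring, 5 with 4 arrays only, 4 with every probe set, 5 at an adjusted p under 0.10, 7 with the trend and without array 277, 6 at a mean signal of at least 200, and 0 to 5 on leaving out each array. The 0 lower genes became 1 with quantile normalization, 2 with a pseudocount of 32, 2 at a mean of at least 50, 3 with the trend, 1 with every probe set, 2 at an adjusted p under 0.10, 6 with the trend and without array 277 and 3 at a mean of at least 200. The median of the 63 genes between WT days, 0.74, was 0.14 at a mean of at least 50, -0.29 at a mean of at least 200, and 0.05 to 1.37 on leaving out each array. Between heterozygotes and WT on day 4 the median, -0.67, was 0.05 at a mean of at least 200 and -0.87 to -0.03 on leaving out each array. Counts over all 18193 genes moved with the settings too. Between WT days, 1379 rose and 1042 fell by default, 587 and 821 after centring, and 337 and 279 with 4 arrays only. Between heterozygotes and WT on day 1, 922 were higher and 815 lower by default. These became 1149 and 992 with quantile normalization, 1420 and 1333 with a pseudocount of 32, and 2124 and 1756 with the trend. At a mean of at least 50 they were 1621 and 1347 of 12811 genes. Where 1 array of a group was left out, the lone array was assumed to vary like the other groups. No paired analysis was possible because the groups share no replicate numbers. Without detection calls, dim signals cannot be set against background.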

Other observations

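Of the 63 genes, 32 had other probe sets, 62 in all. Between WT day 4 and day 1, 47 of the 62 had the sign of the probe set used, among them 15 of the 17 with a mean signal of at least 200. Between heterozygotes and WT on day 4, 42 of 62 did, and 11 of the 17. Some dim genes that did not pass had their highest signal on array 277. Slc6a21 read 4.13 and 24.7 in heterozygotes, 175 and 21.0 in WT on day 4 and 5.60 and 3.75 in WT on day 1. Slc1a7 read 4.76 and 3.38 in heterozygotes, 64.9 and 11.4 in WT on day 4 and 43.1 and 4.27 in WT on day 1. Slc6a19os read 17.9 and 4.60 in heterozygotes, 127 and 8.12 in WT on day 4 and 12.9 and 5.27 in WT on day 1. Slc6a20a, which belongs to the imino acid carriers, was dim in all groups, with 16.1 and 16.2 in heterozygotes, 8.46 and 21.7 in WT on day 4 and 0.530 and 4.68 on day 1.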
